A study of Mus musculus with 6 samples.

Results

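The Ms4a genes encode small membrane proteins that cross the lipid bilayer several times, and most of them are found on cells of the immune system. In the mouse they lie side by side on chromosome 19. Their best known product is CD20 on B cells (Ms4a1), while other members occur on macrophages, monocytes, T cells and mast cells, where they associate with receptors of those cells and tune their signalling. The 8 members described here, Ms4a4a, Ms4a4b, Ms4a4c, Ms4a4d, Ms4a6b, Ms4a6c, Ms4a6d and Ms4a7, are the rows of the cluster given as expressed in macrophages and lymphocytes, 8 of the 32212 rows of the deposited table and 8 of its 21 rows named Ms4a. They were chosen by symbol with the difference between the genotypes in these same livers already known, so that their CgA-KO over WT values are a description and carry no test.

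Poly(A)-selected liver RNA was sequenced from 3 WT and 3 CgA-KO mice, 1 library per mouse. All were males of the C57BL/6 background at 2 yr of age on a normal chow diet. CgA is chromogranin A, a secreted prohormone encoded by Chga that is cut into several peptides, and CgA-KO mice lack the gene in every cell, so that the deletion is not limited to the liver or to immune cells. Livers are numbered 1 to 3 within each genotype by their labels, and the numbers mark no shared animal or batch that the labels state.

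The deposited values are estimated reads per gene, given as whole counts, with 10558616 to 31087453 counts per library. Levels are given as CPM, counts scaled to a common library size with TMM factors (a trimmed mean of log ratios between libraries), and on this scale 3 counts are worth between 0.0951 and 0.269 CPM, a floor that covers counting error only. The genotypes were compared in 13867 genes with the quasi-likelihood test of edgeR. A gene is termed called where its p-value after Benjamini-Hochberg adjustment was below 0.05, and rose or fell is said of called genes only. Over all genes tested the median of the log2 fold changes was -0.0075, and it was 0.26 when libraries were scaled by their size alone. Chga had 0 counts in all 6 libraries and so cannot check the genotype labels. CgA-KO liver 2 stood apart in markers of immature neutrophils and in most T cell markers, with the values given beside the members. Alb, the albumin gene of hepatocytes, was at 30668 to 66178 CPM. In whole tissue, fewer cells of a type and less RNA per cell cannot be told apart.

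The members span 284 kb of chromosome 19, from 11321039 to 11604849 in GRCm38, with coordinates from the GENCODE annotation. In chromosomal order they are Ms4a7, Ms4a4a, Ms4a4c, Ms4a4b, Ms4a6c, Ms4a6b, Ms4a4d and Ms4a6d, and all but the first and last are on the plus strand. Several members are close copies of each other, which matters for counts that a program assigns to transcripts by sequence. The coding sequences of Ms4a4b and Ms4a4c, both 681 bases long, were identical at 91.8% of aligned bases, Ms4a4c and Ms4a4d at 87.9%, and Ms4a6b and Ms4a6c at 85.3%. Ms4a4a shared only 67.1% to 68.3% with the other three genes of its number. The longest stretch without a difference between any pair lay in Ms4a4b and Ms4a4c, at coding bases 321 to 447 of both. Reads were 100 bases long per end, so a read end that falls within this stretch of 127 bases matches both genes. It is shown once, since the letters are the same.

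Ms4a4b and Ms4a4c: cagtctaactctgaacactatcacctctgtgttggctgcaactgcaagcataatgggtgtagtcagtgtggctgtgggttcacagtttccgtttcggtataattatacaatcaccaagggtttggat

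In the Ms4a6 genes the longest shared coding stretch joined Ms4a6b and Ms4a6d, at coding bases 100 to 180 of Ms4a6b. The same 81 bases are shown for Ms4a6c, with the 4 bases that differ from Ms4a6b in capitals, because these are the bases by which reads of the 2 genes can be told apart here.
Ms4a6b and Ms4a6d: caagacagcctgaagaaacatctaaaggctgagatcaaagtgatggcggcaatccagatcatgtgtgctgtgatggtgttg
Ms4a6c: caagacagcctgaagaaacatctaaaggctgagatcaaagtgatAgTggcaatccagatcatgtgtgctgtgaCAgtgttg

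Whole transcripts were compared by exact words, a measure that cannot be set against the coding identity. Of all words of 31 bases in a member's transcripts, the share found in transcripts of any other gene was 0% for Ms4a4a, 1.42% for Ms4a7, 3.44% for Ms4a4d, 5.47% for Ms4a4b, 7.90% for Ms4a6b, 8.11% for Ms4a6d and 17.1% for Ms4a4c. For Ms4a6c it was 58.1%, of which most came from BE692007, an antisense transcript that covers 53.1% of its exon bases. BE692007 has no row matched by name and was not analysed here, and whether reads were assigned by strand is not given in the sources used here, so the split between Ms4a6c and its antisense partner is uncertain.

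**Figure D1:**
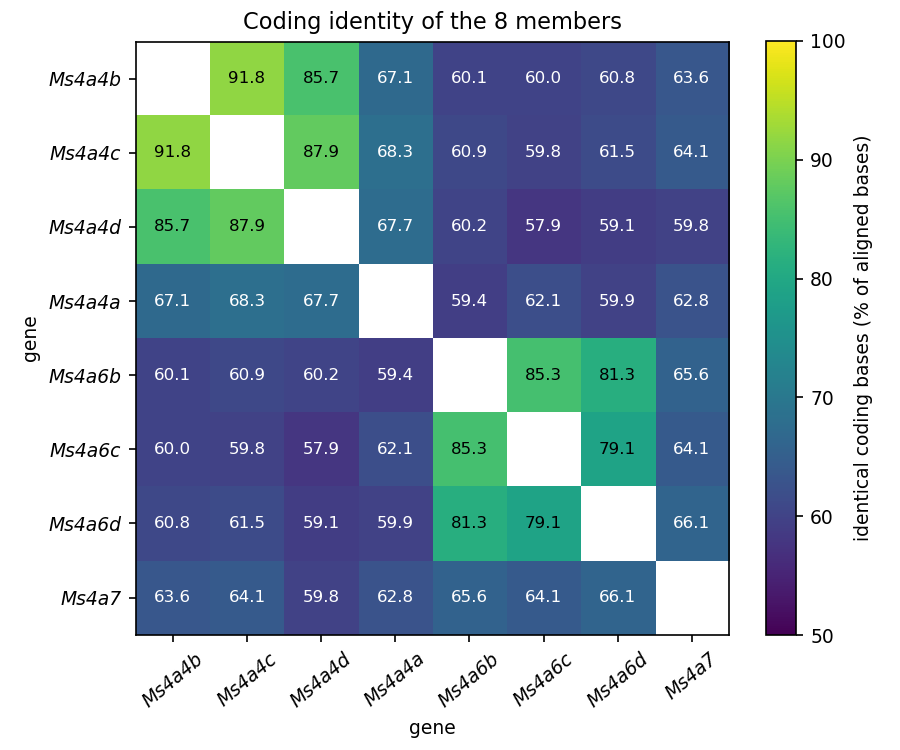
Share of identical bases (%) between the coding sequences of each pair of members, by global alignment, with colour and number giving the same value. Ms4a4b, Ms4a4c and Ms4a4d form one block of 85.7% or more and the Ms4a6 genes another of 79.1% or more, while Ms4a4a and Ms4a7 stand at 68.3% or less with every other member.

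The sequences upstream of the members' start sites were compared as well. RefSeq promoters (GRCm38.p6) matched 7 of the 8 members. The 250 bases before the start of Ms4a4b and Ms4a4c are shown because both hold GAGGAA, the core letters of sites for PU.1, a transcription factor of myeloid and B cells, at 64 and 61 bases before the start. Capitals mark these letters.
Ms4a4b, chr19:11443308-11443557, plus strand: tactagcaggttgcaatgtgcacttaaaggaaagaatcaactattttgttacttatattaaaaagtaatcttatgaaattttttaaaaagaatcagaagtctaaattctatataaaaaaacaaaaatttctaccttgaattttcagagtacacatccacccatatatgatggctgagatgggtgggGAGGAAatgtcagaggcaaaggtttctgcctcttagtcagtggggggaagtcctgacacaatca
Ms4a4c, chr19:11407411-11407660, plus strand: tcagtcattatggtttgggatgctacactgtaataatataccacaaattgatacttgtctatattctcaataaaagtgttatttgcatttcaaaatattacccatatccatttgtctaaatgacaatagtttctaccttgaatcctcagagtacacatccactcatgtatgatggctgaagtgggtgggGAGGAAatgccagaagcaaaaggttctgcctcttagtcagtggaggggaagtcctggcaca

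On either strand, GAGGAA was found in 2 of the 8 promoters of members, with Ms4a7 having 2 promoters, and in 23.3% of all 32851 promoters. TTGCNNAA, letters of sites for C/EBP factors, was found before Ms4a4d alone and in 9.56% of all promoters, and TATAAA before Ms4a4b alone and in 12.4%. The letters of the interferon-stimulated response element, 2 GAAA blocks with 2 free bases between them, were found in none of the members' promoters and in 2.98% of all. An ETS-IRF composite of the same length, spacing and last block, which can overlap GAGGAA, was likewise found in none of the members' promoters and in 2.3% of all. GAGGAA and TATAAA do not overlap where they occur together, before Ms4a4b. The longest run shared by a pair of promoters was 48 bases, in Ms4a6b and Ms4a6c, where it began 118 and 49 bases before the start. It is in capitals in the sequence before Ms4a6c.
Ms4a6c, chr19:11469118-11469367, plus strand: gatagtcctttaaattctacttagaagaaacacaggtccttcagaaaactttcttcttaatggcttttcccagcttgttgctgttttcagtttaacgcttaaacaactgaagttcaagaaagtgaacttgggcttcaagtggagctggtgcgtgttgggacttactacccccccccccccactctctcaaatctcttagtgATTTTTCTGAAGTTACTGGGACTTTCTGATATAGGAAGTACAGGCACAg

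All 8 members were higher on average in CgA-KO than in WT liver, by log2 fold changes of 1.06 to 4.48 with a median of 3.21. Summed over the members, the level was 33.2, 11.8 and 7.58 CPM in WT livers 1, 2 and 3, and 154, 166 and 86.8 CPM in CgA-KO livers 1, 2 and 3. The means were 17.5 ± 13.7 and 136 ± 42.8 CPM (SD, n = 3), a ratio of 7.73, and no CgA-KO liver came as low as a WT liver. Without WT liver 1, the highest of its genotype, the WT mean was 9.70 CPM and the ratio 13.98, a setting added after the data were seen, and without any 1 of the other livers the ratio was 6.02 to 9.12. Of the 8 members, 6 were called, all of them higher, where 12.4% of all genes tested were called and 8.60% were called higher. In 7 of the 8 every CgA-KO liver was above every WT liver, which held for 19.0% of all genes tested. The members were selected on this contrast, and nothing is read from these counts. Fewer members were called with 1 library left out. These fits use the same contrast, so nothing is read from them either. Without WT liver 2 or 3 it was 1 member, where 841 of 14155 and 394 of 14111 genes were called. Without CgA-KO liver 1 or 2 it was 2 members, where 744 of 14197 and 976 of 13974 genes were called. Without WT liver 1 it was 5, with 2126 of 14262 genes called, and without CgA-KO liver 3 it was 4, with 1249 of 14270.

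**Figure D2:**
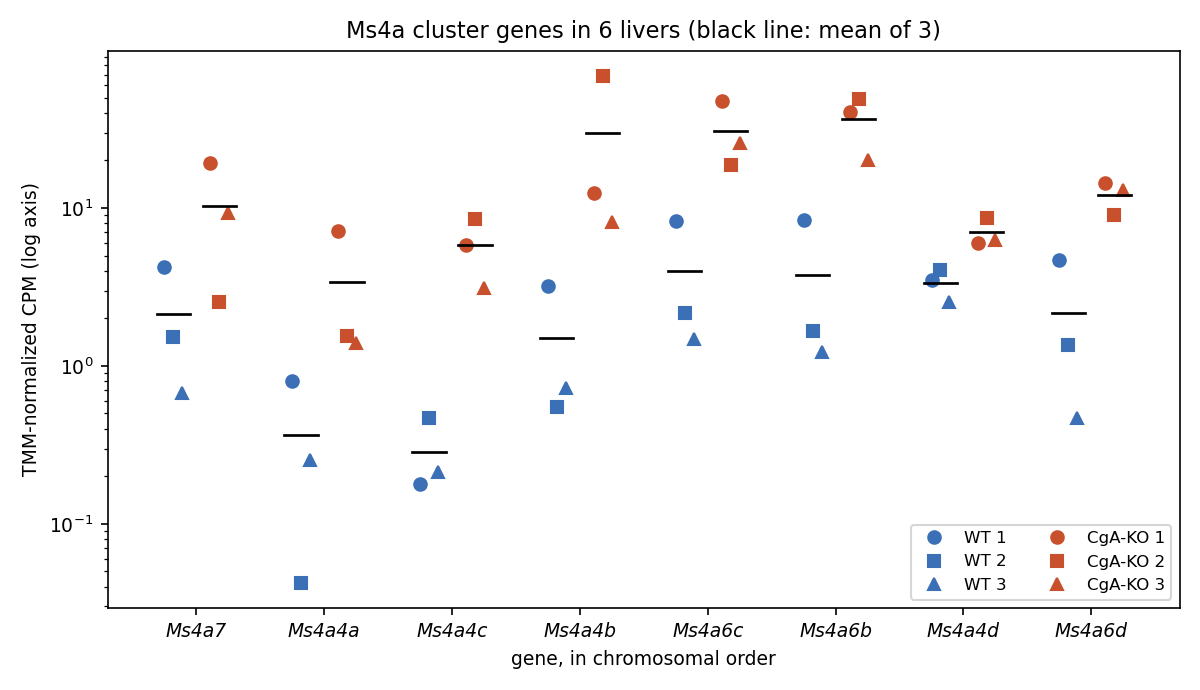
TMM-normalized CPM (log axis) of the 8 members in each liver, in chromosomal order, with WT in blue, CgA-KO in orange, the liver number as the symbol and the mean of 3 as a black line. Only Ms4a7 overlaps between the genotypes, WT liver 1 is the highest WT point in 6 of the 8 genes, and Ms4a4b of CgA-KO liver 2 stands at 68.5 CPM.

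Among the members, Ms4a4b and Ms4a4c had the largest log2 fold changes. Ms4a4b, a T cell member that associates with the costimulatory receptor GITR, was at 3.22, 0.553 and 0.720 CPM in WT livers 1 to 3 and at 12.5, 68.5 and 8.16 CPM in CgA-KO livers 1 to 3. The genotypes did not overlap, and a single library, CgA-KO liver 2 with 2159 counts against 270 and 182, held most of the CgA-KO signal. This gave a log2 fold change of 4.48 (SE 0.969), and of 2.94 without that library and 5.57 without WT liver 1. The SE is the fold change divided by the root of its F statistic, an approximation. T and NK cell markers had their summed level at 5.79 to 22.2 CPM in WT livers. It was 69.9 and 63.4 CPM in CgA-KO livers 1 and 3, and 246 CPM in CgA-KO liver 2. Within this list Cd4, Gzma, Klrb1c and Ncr1 did not peak in CgA-KO liver 2, while its other genes in the table did. Cd4 was at 1.97 CPM there, against 26.3 and 16.5 CPM in CgA-KO livers 1 and 3. The part of these markers in the Ms4a4b value was not tested.

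Ms4a4c, its nearest copy and a member of haematopoietic cells, was at 0.179, 0.468 and 0.212 CPM in WT livers 1 to 3, which is 2, 11 and 5 counts. It was at 5.85, 8.47 and 3.14 CPM in CgA-KO livers 1 to 3, with 126, 267 and 70 counts. Each CgA-KO liver was thus far above the floor of 3 counts. WT liver 1 was below that floor, and WT livers 2 and 3 were above it with few counts. The log2 fold change of 4.25 (SE 0.540) had the smallest SE relative to its size among the members, and lay between 3.92 and 4.83 when single libraries were left out. Ms4a4c shared 12.99% of its words of 31 bases with Ms4a4b, and how this moved counts between them was not tested.

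Ms4a4a, a member of alternatively activated macrophages that associates with the fungal receptor Dectin-1, had 9, 1 and 6 counts in WT livers 1 to 3, or 0.806, 0.0425 and 0.254 CPM. In CgA-KO livers 1 to 3 it was at 7.20, 1.55 and 1.39 CPM. Without overlap, CgA-KO liver 1 alone was 4.63-fold above the next liver of its genotype. With a log2 fold change of 3.40 (SE 0.962) it was not called, and this change was 2.20 without CgA-KO liver 1, 2.78 without WT liver 2 and 4.48 without WT liver 1.

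Ms4a4d, a copy close to Ms4a4b and Ms4a4c in sequence, behaved apart from them in level. It was at 3.49, 4.04 and 2.54 CPM in WT livers 1 to 3 and at 6.03, 8.69 and 6.28 CPM in CgA-KO livers 1 to 3. The groups did not overlap, and the spread within each was the smallest of the members, with an SD of 22.6% of the mean in WT and 21.0% in CgA-KO livers. Its log2 fold change of 1.06 (SE 0.291) was the smallest of the 8.

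The Ms4a6 genes summed to 9.89 ± 9.94 CPM in WT livers and to 79.4 ± 22.3 CPM in CgA-KO livers (SD, n = 3). Ms4a6b, found in lymphoid and myeloid cells, was at 8.42, 1.66 and 1.23 CPM in WT livers 1 to 3 and at 40.7, 49.0 and 20.0 CPM in CgA-KO livers 1 to 3. WT liver 1 was 5.07-fold above the next WT liver, yet below every CgA-KO liver. Its log2 fold change was 3.38 (SE 0.688), and 4.70 without WT liver 1.

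Ms4a6c, a member of monocytes and macrophages, was at 8.24, 2.17 and 1.48 CPM in WT livers 1 to 3 and at 47.9, 18.6 and 25.6 CPM in CgA-KO livers 1 to 3. Here CgA-KO liver 2, the highest for Ms4a6b, was the lowest of its genotype, and the groups still did not overlap. Over all livers the log2 fold change was 3.03 (SE 0.628), and it was 4.11 without WT liver 1.

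Ms4a6d, a macrophage protein reported to form a complex with VSIG4 at the cell surface, was at 4.66, 1.36 and 0.466 CPM in WT livers 1 to 3 and at 14.4, 9.01 and 12.95 CPM in CgA-KO livers 1 to 3. All CgA-KO livers were above all WT livers, and they were more alike than the WT livers, with an SD of 23.0% against 102% of the mean. Its fold change on the log2 scale was 2.58 (SE 0.657), and 3.77 without WT liver 1.

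Ms4a7, a member of tissue macrophages, was the one whose groups overlapped. It was at 4.21, 1.53 and 0.678 CPM in WT livers 1 to 3 and at 19.2, 2.54 and 9.23 CPM in CgA-KO livers 1 to 3, so that CgA-KO liver 2 fell below WT liver 1. The log2 fold change of 2.34 (SE 0.791) was not called, and it was 1.55 without CgA-KO liver 1 and 3.26 without WT liver 1.

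Levels of different genes can be set side by side only per length. As CPM per kb of exon bases, the order in CgA-KO livers was Ms4a6c at 15.0 ± 7.45, Ms4a6b at 8.16 ± 3.33, Ms4a6d at 6.98 ± 1.61, Ms4a4d at 4.63 ± 0.970, Ms4a4a at 4.04 ± 3.95, Ms4a4b at 3.38 ± 3.83, Ms4a4c at 3.32 ± 1.52 and Ms4a7 at 2.32 ± 1.89 (SD, n = 3). Every gene overlapped its neighbour in this order over the 3 livers. In WT livers Ms4a4d came first, at 2.22 ± 0.502 CPM per kb, followed by Ms4a6c at 1.93 ± 1.81 and Ms4a6d at 1.25 ± 1.27, and Ms4a4c came last at 0.164 ± 0.0903. Neighbours overlapped there too. Ms4a4d was first in WT livers 2 and 3 and was behind Ms4a6c and Ms4a6d in WT liver 1. With the longest transcript as the length, Ms4a4b was at 6.26 CPM per kb in CgA-KO livers, the fourth place, because its exon union of 8780 bases is much longer than any 1 of its transcripts.

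The make-up of the Ms4a signal differed between livers of the same genotype. Ms4a4b took 41.2% of the members' summed counts in CgA-KO liver 2, against 8.15% and 9.40% in CgA-KO livers 1 and 3. Ms4a7 took 1.52% in CgA-KO liver 2, against 12.5% and 10.6%. Ms4a6c took 11.2% there, against 31.1% and 29.5%. The library in which the T cell member Ms4a4b took its largest share was thus the one of the CgA-KO livers in which Ms4a7 and Ms4a6c took their smallest. Among WT livers, Ms4a4d took 34.2% and 33.5% in livers 2 and 3 but 10.5% in liver 1, where 6 of the 8 members had their highest WT level, and it took 3.92% to 7.23% in CgA-KO livers.

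**Figure D3:**
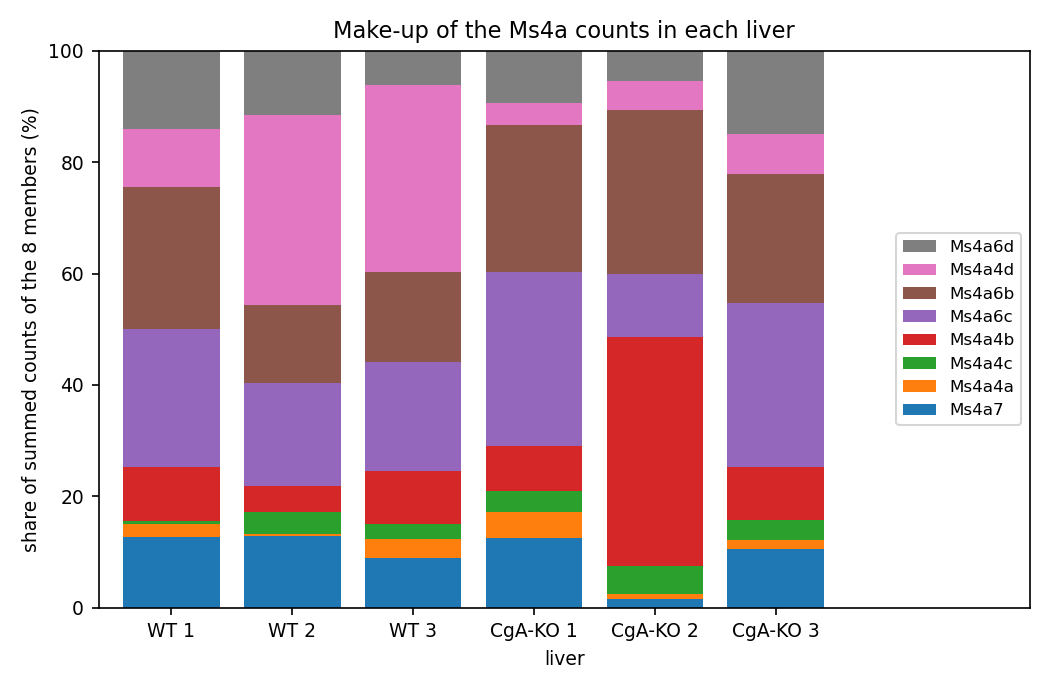
Share (%) of the summed counts of the 8 members taken by each gene in each liver, as stacked bars that add to 100. Ms4a4b (red) takes 41.2% in CgA-KO liver 2 and 9.70% or less in every other liver, and Ms4a4d (pink) takes 34.2% and 33.5% in WT livers 2 and 3 and 10.5% or less in the others.

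The rest of the family was taken by name, as the rows named Ms4a that are no members, and so leaves out Gm8369 of the same cluster, described below. Of its 13 rows, 3 passed the filter on low counts and edgeR called 0 of them, where 12.4% of all genes were called. At an unadjusted p-value under 0.05 there was 1, and DESeq2 called 0 and limma-voom 1, Ms4a8a in both cases. Ms4a8a, known from macrophages and gut epithelium, had 74, 5 and 20 counts in WT livers 1 to 3 and 585, 514 and 256 in CgA-KO livers 1 to 3. The groups did not overlap, at 2.56 ± 3.53 and 18.3 ± 8.03 CPM (SD, n = 3), with a log2 fold change of 2.98 (SE 0.925) and an adjusted p-value of 0.0681 by edgeR. Without WT liver 1 its log2 fold change was 5.12 and it was called.

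Ms4a1, which encodes the B cell antigen CD20, had 122, 20 and 31 counts in WT livers 1 to 3 and 179, 51 and 54 in CgA-KO livers 1 to 3. Liver 1 was the highest in both genotypes and the groups overlapped. Its log2 fold change was -0.03 (SE 0.946) with an adjusted p-value of 0.985 by edgeR, and its sign was positive in 6 of 13 alternatives, scaling by library size alone among them. Ms4a14 had 29, 0 and 2 counts in WT livers 1 to 3 and 113, 13 and 54 in CgA-KO livers 1 to 3, with a log2 fold change of 1.79 (SE 1.36) and an adjusted p-value of 0.424 by edgeR. Its groups overlapped too, and without WT liver 1 it was called at a log2 fold change of 5.85.

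Ms4a3, a gene of granulocyte and monocyte progenitors, had 85 counts in CgA-KO liver 2 and 0 in each of the other 5 libraries. The same library held the progenitor enzymes Mpo, with 2107 counts, and Elane, with 588, which had at most 15 and 16 counts in any other library. These genes were picked after their values were seen. Ms4a2, the beta chain of the IgE receptor of mast cells, had at most 7 counts in any library, Ms4a12 at most 2, and Ms4a20 a total of 1. Ms4a5, Ms4a10, Ms4a13, Ms4a15, Ms4a18 and Ms4a19 had 0 counts in all 6 libraries, which allows up to 0.0951 CPM in the deepest scaled library and 0.269 CPM in the shallowest.

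Other genes lie between the members. Gm8369, a protein-coding gene between Ms4a6c and Ms4a6b, had a mean of 0.586 ± 0.508 CPM in WT livers against 3.17 ± 1.76 CPM in CgA-KO livers (SD, n = 3), without overlap. Its log2 fold change was 2.57 (SE 0.676), with an adjusted p-value of 0.0400 by edgeR. This gene was called in 6 of 12 alternatives, with adjusted p-values of 0.00293 to 0.164. The call was lost under scaling by library size alone, with the replicate number as a block (adjusted p-value 0.0656 by edgeR), and without WT liver 2, WT liver 3, CgA-KO liver 1 or CgA-KO liver 2. The pseudogenes Gm5511, with 19 counts in all, and Gm5692, with 0, did not pass the filter, and Gm28935, Gm19261, Gm10212 and Gm38275 were not analysed here. Outside the members, the noncoding RNA AW112010 on the far side of Ms4a8a had a mean of 102 ± 42.6 CPM in WT livers against 128 ± 8.99 CPM in CgA-KO livers (SD, n = 3), with a log2 fold change of 0.33 and an adjusted p-value of 0.497 by edgeR.

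**Figure D4:**
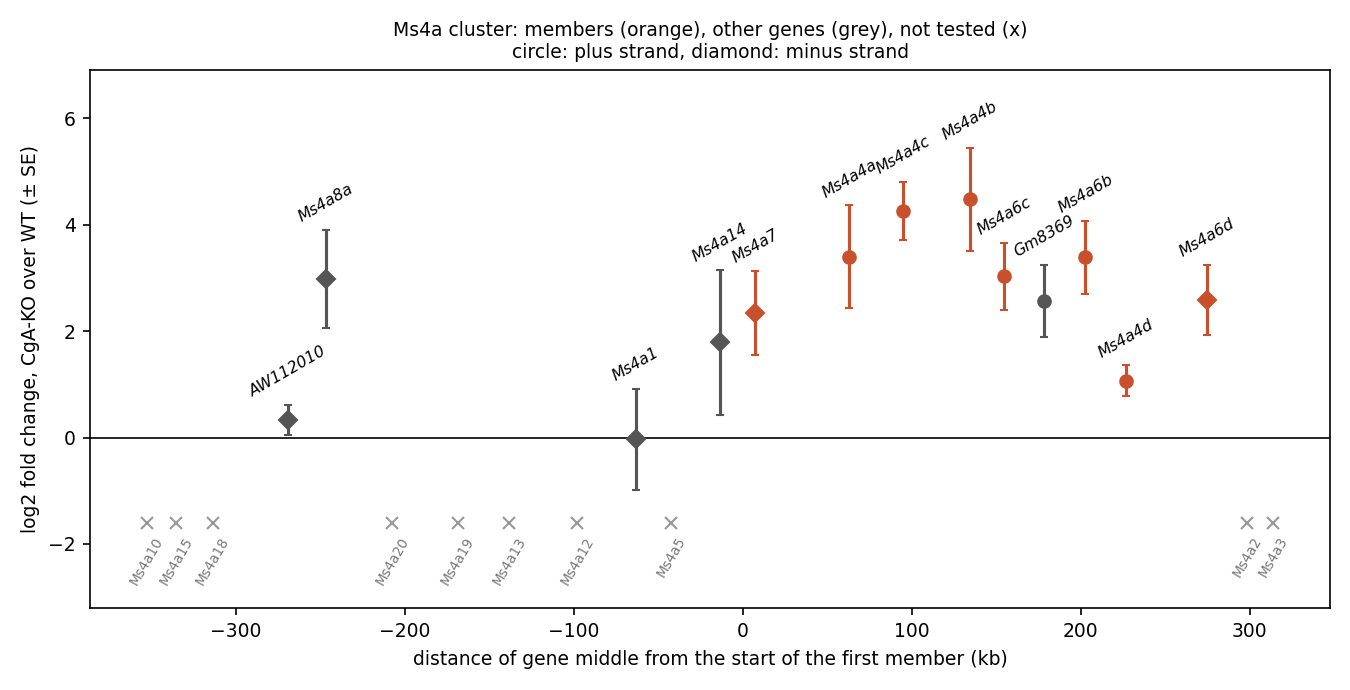
Log2 fold change of CgA-KO over WT (± SE) against the distance of each gene's middle from the start of Ms4a7 (kb), with members in orange, other tested genes in grey, plus-strand genes as circles, minus-strand genes as diamonds, and Ms4a rows that did not pass the filter as crosses at a fixed height without a value. The members run from 1.06 (Ms4a4d) to 4.48 (Ms4a4b), and Ms4a1 lies at -0.03.

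Partners reported for MS4A proteins were taken as a list of 7, together with signalling genes that act with such receptors and are not themselves reported partners. Of these, 4 were called higher and 0 lower, where 8.60% of all genes tested were called higher. Their median log2 fold change was 2.58. Vsig4, the complement receptor of Kupffer cells, was at 24.5, 16.0 and 8.68 CPM in WT livers 1 to 3 and at 138, 148 and 211 CPM in CgA-KO livers 1 to 3, with a log2 fold change of 3.35 (SE 0.382) and an adjusted p-value of 0.00322 by edgeR. Its groups did not overlap, and it was called in all 13 alternatives run for it. Tyrobp, the adapter of TREM2, Card9, the adapter downstream of Dectin-1, and Tnfrsf18, which encodes GITR, also rose, by log2 fold changes of 2.47, 2.61 and 2.94. Clec7a, which encodes Dectin-1, had a log2 fold change of 2.58 with an adjusted p-value of 0.0937 by edgeR, and its groups overlapped because CgA-KO liver 2 was at 21.2 CPM against 37.2 CPM in WT liver 1. Trem2 and Syk were not called, at log2 fold changes of 2.30 and 1.55.

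Markers of cells known to carry Ms4a genes were counted list by list, and their part in the members' values was not tested. Of 12 Kupffer cell markers 10 were called higher and 0 lower, with a median log2 fold change of 3.03. Their summed level was 144 to 351 CPM in WT livers against 1465 to 2083 CPM in CgA-KO livers. Clec4f, a lectin specific to Kupffer cells, had a log2 fold change of 2.96 with an adjusted p-value of 0.0122 by edgeR, and Adgre1, which encodes F4/80, one of 3.61 with 0.00322. Marco and Cd163 were not called, and the groups overlapped in both. Marco was at 1.34 to 14.3 CPM in WT livers. It was lower in CgA-KO livers 1 and 3, at 0.139 and 1.08 CPM, and at 57.4 CPM in CgA-KO liver 2. All 6 pan-leukocyte genes were called higher, with a median of 2.83, Laptm5 at 3.20 and Cd53 at 3.32, and summed to 24.3 to 80.9 CPM in WT livers against 250 to 446 CPM in CgA-KO livers. Without CgA-KO liver 2, 9 Kupffer cell markers and 4 pan-leukocyte genes were called.

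Of 10 monocyte markers 4 were called higher, with a median of 2.23. They summed to 14.9 to 30.8 CPM in WT livers, to 65.5 and 93.2 CPM in CgA-KO livers 1 and 3 and to 237 CPM in CgA-KO liver 2. Plac8 was not called, at a log2 fold change of 1.18, while Chil3, at 0.0847 to 0.179 CPM in WT livers, was called at 6.67. Of 15 T and NK cell markers 13 were in the table, 12 were tested and 7 were called higher, with a median of 3.43. Without CgA-KO liver 2 only 3 of them were called, without WT liver 1 also 3, and limma-voom called 0 of them, while edgeR had 10 at an unadjusted p-value under 0.05 and DESeq2 called 9. Il7r was among those called, and Cd8b1 stood at a log2 fold change of 4.61 with an adjusted p-value of 0.0520 by edgeR. The B cell markers had 0 of 7 called in edgeR, 0 in DESeq2 and limma-voom, and 0 at an unadjusted p-value under 0.05. Their median was 0.29, and their sums were 19.8 to 113 CPM in WT livers against 37.5 to 125 CPM in CgA-KO livers. Ighm and Ighd, the immunoglobulin heavy chains, were at log2 fold changes of 0.29 and 1.92.

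Of 9 neutrophil markers 4 were tested and 3 called higher, and 1 was called without CgA-KO liver 2, 1 without WT liver 1 and 1 by limma-voom. They summed to 2.63 to 10.6 CPM in WT livers, 29.6 and 34.6 CPM in CgA-KO livers 1 and 3 and 373 CPM in CgA-KO liver 2. S100a9 was called at a log2 fold change of 3.55, and Ngp, with 2903 counts in CgA-KO liver 2 and at most 36 elsewhere, was not, at 8.21. Dendritic cell markers had 2 of 5 called higher, and 0 without CgA-KO liver 2, with Flt3 at 2.23 among them and Clec9a at 1.46 not. Markers of lipid-associated macrophages had 2 of 8 called higher, Cd68 at 2.60 among them, with Ctsd at 0.63 not called. Interferon-stimulated genes had 9 of 10 called higher, with a median of 1.88, Irf7 at 1.41 and Mx1 at 3.16. The hepatocyte markers had 0 of 7 called in edgeR, 1 at an unadjusted p-value under 0.05, 1 called in DESeq2 and 0 in limma-voom. Their median was -0.18, with Alb at -0.23 and Ttr at -0.78. No marker list held a gene at 0 in all 6 libraries.

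**Figure D5:**
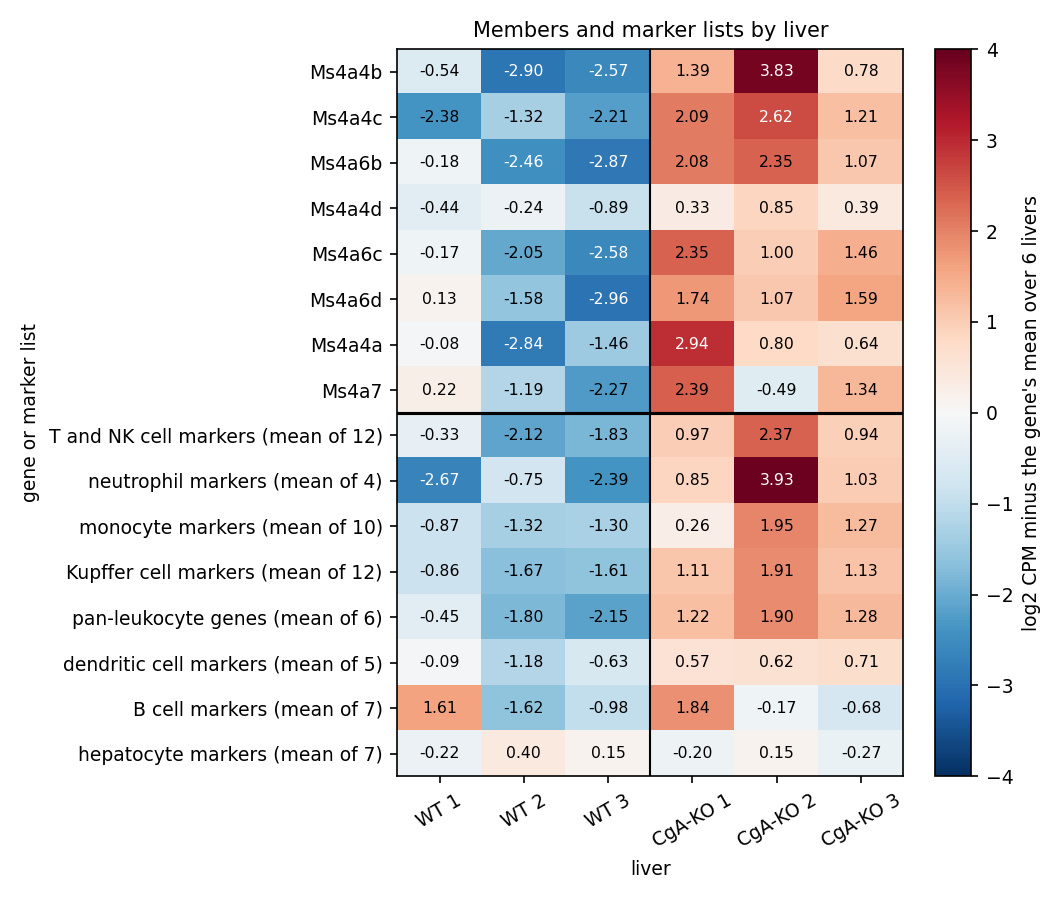
Log2 CPM (prior count of 2) minus each gene's mean over the 6 livers, for the 8 members and, below the line, for marker lists as the mean of their tested genes. Ms4a4b and the means of the neutrophil and of the T and NK cell lists peak in CgA-KO liver 2, at 3.83, 3.93 and 2.37, where Ms4a7 is at -0.49.

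Set against these sums, the members differed in how their share moved. As a percentage of the summed pan-leukocyte level, Ms4a6d was at 5.76, 4.46 and 1.92 in WT livers 1 to 3 and at 5.30, 2.02 and 5.19 in CgA-KO livers 1 to 3. These ranges overlap, with a ratio of means of 1.03. On the same base the ratio of means, CgA-KO over WT, was 0.872 for Ms4a7, 1.37 for Ms4a6c, 1.63 for both Ms4a4a and Ms4a6b, 2.02 for Ms4a4c and 2.65 for Ms4a4b, all with overlap, which does not show an equal share. Against the monocyte sum the ratio was 1.54 to 3.58 for every member but Ms4a4d, where it was 0.397. Against the Kupffer cell sum it was 0.639 for Ms4a7, 0.808 for Ms4a6d, 1.05 for Ms4a6c and 1.20 for Ms4a4a. On that base it was 1.34 for Ms4a6b, 1.87 for Ms4a4c, 2.59 for Ms4a4b and 0.218 for Ms4a4d. Against the T and NK cell sum it was 0.800 to 1.78 for every member but Ms4a4d, where it was 0.188. Ms4a4d was at 4.32, 13.2 and 10.5% of the pan-leukocyte sum in WT and 2.22, 1.95 and 2.51% in CgA-KO livers, below every WT liver, and it was likewise below every WT liver against the Kupffer, monocyte and T and NK cell sums. Ms4a4c was above every WT liver relative to the monocyte sum, at 3.37 to 8.94% against 0.581 to 2.43%, and overlapped relative to the others. These ratios share libraries and depth, and no test was made.

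The members also differed in which genes followed the same course over the 6 livers. Likeness was measured as the root mean square distance between log2 CPM profiles, each centred on its own mean, to 9935 other genes of at least 5 CPM (9936 for Ms4a4a and Ms4a4c, which are below that level themselves). All profiles hold the difference between the genotypes. The distance is not scaled to the size of a profile's changes, so profiles with small changes lie closer together whatever their shape. Ms4a4d, the member with the smallest log2 fold change, was nearest to Gdf2 at 0.0964, Hpse at 0.0978 and Pam at 0.109. These genes had log2 fold changes of 0.90, 1.09 and 0.94. Ms4a6c was nearest to H2-Aa at 0.144, Clec4a1 at 0.211 and H2-DMb1 at 0.222, and Ms4a6d to H2-Aa at 0.279, H2-Ab1 at 0.298 and Niban1 at 0.314. Ms4a6b was nearest to Cd53 at 0.267, Sla at 0.337 and Ikzf1 at 0.349.

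Of the other members, Ms4a4a was nearest to Trpm2 at 0.342, Emilin2 at 0.398 and Adgb at 0.405. Ms4a4b was nearest to Gm4841 at 0.372, Il2rb at 0.449 and Ccl5 at 0.459, all highest in CgA-KO liver 2. Ms4a7 was nearest to Tfec at 0.397, Cd86 at 0.433 and Gpr137b at 0.479, and Ms4a4c to Gm8893 at 0.432, Cd5l at 0.493 and S100a8 at 0.590. Between members, the smallest distance was 0.380, for Ms4a6c and Ms4a6d, and the largest 1.98, for Ms4a4b and Ms4a7. The close copies Ms4a4b and Ms4a4c were 1.17 apart, and Ms4a4b was nearer to Ms4a6b, at 0.727, than to any Ms4a4 gene.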

How the data were processed

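RNA-seq of 6 livers, 3 per genotype, was analysed from 1 table of counts that the authors deposited. Salmon 1.4.0 had assigned the reads to transcripts of GRCm38, and the table gives whole numbers per gene symbol without scaling. The step from transcripts to genes is not given in the sources used here, and 0 columns were left without a sample. The submitters' notes name DESeq2.

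Low genes were removed with filterByExpr at a minimum count of 10. edgeR 4.0.16 in R 4.3.3 gave TMM factors and two-sided quasi-likelihood tests with Benjamini-Hochberg adjustment over 13867 genes, called at an adjusted p-value under 0.05. The p-values set the genotype difference against the spread between 3 livers per genotype, which edgeR estimated partly from all genes. Log2 CPM used a prior count of 2. The procedure was also run on simulated counts. Genes varied independently there and no library stood apart, so those runs cannot show how calls hold in these livers. Members and lists were chosen with earlier results of these data known, so that members are given without p-values. Single genes named are the members, other Ms4a rows, genes between the members, the gene with the highest mean and that with the largest change of each list, and the 3 genes nearest in profile to each member. Mpo, Elane, AW112010, the genes of the partner list other than Vsig4, and Cd4, Gzma, Klrb1c, Ncr1, Marco and Cd163 fall outside this rule. All of these were named after their values were seen. Promoters come from RefSeq (GRCm38.p6), coding sequences from GENCODE (GRCm38). Alternatives were DESeq2 1.42.0, limma-voom (limma 3.58.1), library size and upper-quartile scaling, totals of at least 1 count, at least 10 counts in every library, a replicate block, each library left out (for the summed level, added after the data were seen), and the longest transcript as length. Plots were made in Python 3.11.15 with matplotlib 3.10.9.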

Additional observations from a re-analysis of the deposited data

How the results depend on the processing

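All members stayed higher in CgA-KO under every alternative in which they were tested, and each alternative uses the contrast that chose them. Across all genes, 1726 of 13867 were called by edgeR and 2601 of 13867 by DESeq2. With 1 library left out, it was between 394 of 14111 (without WT liver 3) and 2126 of 14262 (without WT liver 1). The members called, 6 in edgeR, numbered 8 in DESeq2 and 1 to 5 with 1 library left out. With genes of a total of at least 1 count tested, 2 members and 1620 of 19693 genes were called. By limma-voom 5 members and 1820 of 13867 genes were called, and with upper-quartile scaling 6 members and 1654 of 13867 genes. With at least 10 counts in every library, 4 of the 6 members tested and 1381 of 12268 genes were called. Of the 3 other Ms4a genes tested, limma-voom and the replicate block each called 1, Ms4a8a, and fits without 1 library called 0 to 2. The log2 fold change of Ms4a1 turned positive with library size alone (0.086), limma-voom (0.71) and the replicate block (0.42), and lay between -1.05 and 1.95 with 1 library left out. The cause of these changes was not tested. Same-numbered livers of the 2 genotypes had correlations of 0.199, 0.0127 and -0.0659 in their deviations from the group means. Not every liver correlated best with its own number. With 3 livers per genotype, these correlations cannot decide whether the numbers pair the livers. The replicate block called 1498 of 13867 genes and 6 members. Scaling by library size alone made 86.6% of calls higher in CgA-KO, against 69.1% with TMM. It called 5 members and 1493 of 13867 genes. Depth limits Ms4a4a and Ms4a4c most, with 1 to 11 counts per WT library.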
